A study of Mus musculus with 24 samples.

Results

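The genes described here are 35 interferon response genes, a list of genes whose transcription interferons are known to raise. A probe set was taken for a gene when it carried that 1 symbol, and where several did, the one with the highest average across the 24 arrays was used. In this way 33 of the 35 were measured, among 18820 measured symbols in all. Ifi44 was not analysed here, and Igtp shared its probe set with Irgm2, so neither entered a test. By role, the 33 comprise 3 sensors of foreign nucleic acid, 5 transcription factors and regulators of the pathway, 18 antiviral effectors, 3 genes of class I antigen processing and 4 interferon-inducible GTPases.

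Whole-liver RNA came from male mice on the C57/BL6 background, with 3 arrays in each of 8 groups. Control mice were JNK1f/f, in which the JNK1 gene (Mapk8) is flanked by Cre target sites, and no Cre is stated for them. JNK1-/- mice lack JNK1 in the whole body and were purchased, so they were not derived from the JNK1f/f line. JNK1Δhepa mice came from a cross of JNK1f/f mice with a strain whose Cre is driven by an albumin promoter active after birth, which directs the deletion to hepatocytes, and other liver cells keep the gene. The common bile duct was ligated, an operation that dams bile back into the liver, or the abdomen was opened and closed (sham). At 48 h, when the mice were 8 weeks old per the labels, the groups were sham control, ligated control, ligated JNK1-/- and ligated JNK1Δhepa. The same 4 kinds of group were taken at 28 d, at 12 weeks of age. The mutants were therefore compared with controls and with each other only after ligation. The comparison of both mutants asks whether loss of JNK1 in every cell and loss in hepatocytes alone leave the injured liver with the same interferon response. In every comparison of JNK1-/- mice, the separate origin of their line cannot be told apart from the loss of JNK1. Without a sham group of either mutant, a difference present before ligation cannot be told apart from a different response to it.

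Interferons are secreted proteins that warn neighbouring cells of infection. Type I interferons act largely through the interferon-stimulated response element (ISRE) in promoters, to which a complex with STAT2 and IRF9 binds, and interferon gamma largely through the gamma-activated site (GAS). The induced proteins degrade or trap viral RNA and particles, cut and load peptides for display on class I molecules, and attack vacuoles that hold microbes. In the liver both hepatocytes and resident immune cells respond, and many of these genes are transcribed at a low level without infection.

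As examples of these motifs, 60-base stretches are printed for 6 members that were called in at least 1 comparison and whose promoter held a match. Being picked for a match, they do not show how common the motifs are among the members. They are read 5′ to 3′ on the strand of the gene from RefSeq's promoter windows (GRCm38.p6), and capitals mark every match in the stretch to the ISRE core GAAANNGAAA or to the GAS TTCNNNGAA, searched on both strands in the 250 bases before the transcription start.
Isg15: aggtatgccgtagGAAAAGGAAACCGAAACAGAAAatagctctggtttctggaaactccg
Rsad2: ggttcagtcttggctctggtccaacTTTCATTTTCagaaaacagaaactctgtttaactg
Bst2: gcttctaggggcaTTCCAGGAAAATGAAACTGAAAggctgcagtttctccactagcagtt
Ifit3: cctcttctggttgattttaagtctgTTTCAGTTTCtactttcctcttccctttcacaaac
Gbp3: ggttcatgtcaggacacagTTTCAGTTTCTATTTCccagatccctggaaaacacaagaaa
Psmb8: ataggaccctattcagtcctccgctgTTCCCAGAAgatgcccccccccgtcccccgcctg

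These stretches lie at chr4:156200850-156200909 (minus strand) for Isg15, chr12:26456538-26456597 (minus) for Rsad2, chr8:71537562-71537621 (minus) for Bst2, chr19:34583382-34583441 (plus) for Ifit3, chr3:142559980-142560039 (plus) for Gbp3 and chr17:34198072-34198131 (plus) for Psmb8. Isg15 had 3 overlapping ISRE cores in a row, Gbp3 had 2 overlapping ones, and in Bst2 a GAS overlapped the first of 2 ISRE cores. Psmb8 had a GAS and no ISRE core. Of the 24 measured members with a window, 12 (50.0%) held the ISRE core, against 504 of 14749 measured genes with a window (3.417%) and 978 of all 32851 windows (2.977%). The GAS was held by 5 of the 24 members (20.833%), against 7.79% of measured genes and 7.02% of all windows. Neither motif was in the windows of Oasl1, Oasl2, Xaf1, Irf7, Irf9, Psmb9, Tap1, Ifi35 or Ifih1. A match of letters is a description of the window and not evidence of binding.

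The values are log2 intensities. Array medians ranged from 5.18 to 5.32, no 2 arrays held the same values, and the mean level of 6 hepatocyte markers lay between 12.70 and 12.96 on every array. Mapk8 was at 5.18 to 6.17 on the 6 JNK1-/- arrays, below every other array. It was at 6.76 to 6.81 in JNK1Δhepa at 48 h, but the array labelled JNK1Δhepa replicate 1 at 28 d read 7.67, inside the range of 7.37 to 7.67 of the control arrays other than sham at 48 h, while replicates 2 and 3 read 6.90 and 6.97. Sham control at 48 h also read low, at 6.67 to 6.93. Where the probes lie relative to the deleted part is not given in the sources used here, so this check is limited. Counts of members called, or their medians, that use the array labelled JNK1Δhepa replicate 1 at 28 d are given with and without it. The labels tell animals apart only by replicate number, so p-values measure the spread between these samples. In bulk liver, fewer cells of a type and less RNA per cell cannot be told apart.

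The mean level of the 33 members was lowest in ligated JNK1-/- liver at 48 h and lowest in ligated JNK1Δhepa liver at 28 d. At 48 h it was 7.45 ± 0.07 in sham control (SD, n = 3 here and below), 7.37 ± 0.16 in ligated control, 6.87 ± 0.17 in JNK1-/- and 7.28 ± 0.14 in JNK1Δhepa. The 3 JNK1-/- arrays, at 6.78, 6.76 and 7.06, lay below the other 9 arrays of that time, the lowest of which was at 7.12. At 28 d it was 7.35 ± 0.16 in sham control, 6.73 ± 0.58 in ligated control, 6.97 ± 0.24 in JNK1-/- and 6.21 ± 0.34 in JNK1Δhepa. The ligated control arrays stood apart from each other at 28 d, with replicate 1 at 6.06 and the other two both at 7.06. JNK1Δhepa replicate 1 was likewise the lowest of its group, at 5.83 against 6.34 and 6.47, and the JNK1-/- arrays were at 7.00, 6.71 and 7.19.

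**Figure D1:**
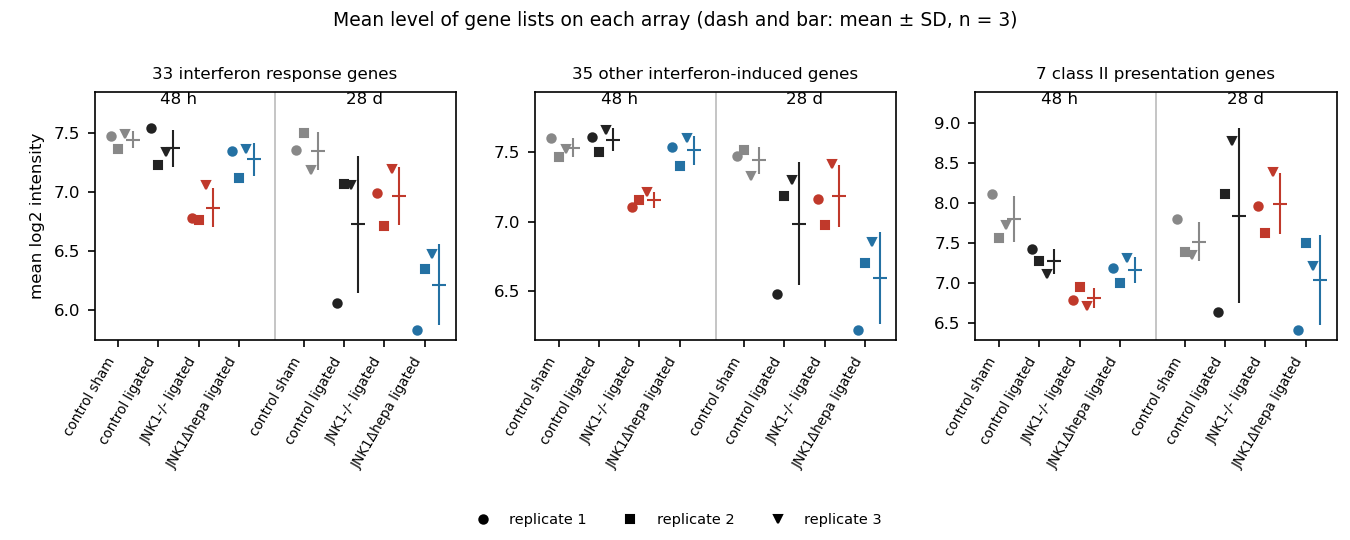
Mean log2 intensity (vertical axis) of 33 interferon response genes, 35 other interferon-induced genes and 7 class II presentation genes on each of the 24 arrays, by group on the horizontal axis, with symbols for the replicate number and a dash and bar for mean ± SD (n = 3). In the first panel JNK1-/- is the lowest group at 48 h, JNK1Δhepa is the lowest at 28 d, and replicate 1 of the ligated controls at 28 d sits at 6.06 beside 7.06 and 7.06.

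Nearly the whole list moved together between arrays of a group at 28 d. Replicate 1 was the lowest array of ligated control for 31 of 33 members and the lowest array labelled JNK1Δhepa for 30 of 33, and replicate 2 was the lowest JNK1-/- array for 29. The median SD of the members in ligated control at 28 d was 0.58, against 0.187 over all genes and against 0.13 to 0.35 for the members in the 7 other groups. Ifit1, an RNA-binding effector, varied most in that group (SD 1.23). Because limma pools the variance over all groups, the standard errors below understate this spread. For the same reason they tend to be large for the 48 h groups, where the members' median SD was 0.13 to 0.26. The same low control array had the lowest class II presentation level of its group (6.64, against 8.12 and 8.77 on the other arrays), and the array labelled JNK1Δhepa replicate 1 had 6.41 against 7.50 and 7.21. The part of antigen-presenting cells in the members' levels was not tested.

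**Figure D2:**
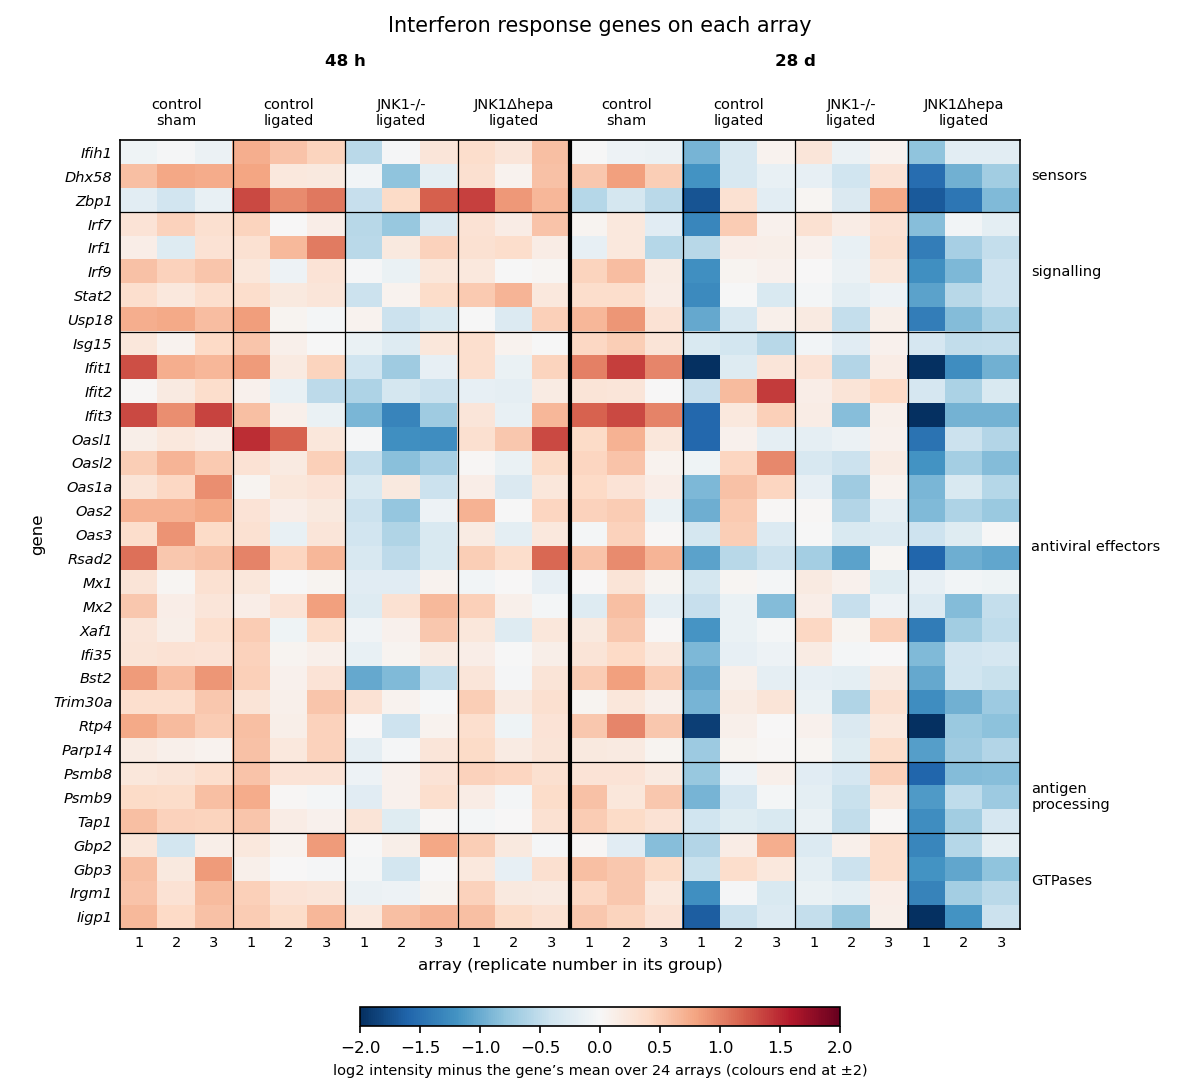
Log2 intensity of each of the 33 members minus its mean over 24 arrays (colour scale, ending at 2 on either side of 0), with genes in rows by role and arrays in columns by group and replicate number. The blue columns are the 3 JNK1-/- arrays at 48 h for the effectors, replicate 1 of the ligated controls at 28 d, and all 3 JNK1Δhepa arrays at 28 d.

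In control liver at 48 h after ligation 1 sensor passed the test and the other 32 members did not. Zbp1, a sensor of Z-form nucleic acid that can trigger cell death, read 7.18, 7.02 and 7.24 in sham and 8.72, 8.34 and 8.45 after ligation, without overlap. It rose by 1.35 on the log2 scale (SE 0.41, 2.55-fold, limma adjusted p = 0.0431) and was the 1 member called, against 5.61% of all genes called higher. Ifih1, which encodes the RNA sensor MDA5, went from 9.05 ± 0.05 to 9.71 ± 0.14 and missed the threshold (0.66, SE 0.21, adjusted p = 0.0579). None of the 33 was called lower, against 3.83% of all genes, yet 24 of 33 differences were negative with a median of −0.16 (−0.03 over all genes). Ifit3, an effector that binds viral RNA with its relatives, read 8.28, 7.88 and 8.31 in sham and 7.55, 7.05 and 6.82 after ligation (−1.02, SE 0.41, adjusted p = 0.133). Groups did not overlap for 5 members higher and 7 lower, against 16.5% and 16.4% of all genes. The call of Zbp1 was lost without any 1 of the 6 arrays (replicate 1, 2 or 3 of either group left out, 0 members called each time). In those refits 5.87 to 7.68% of all genes were called either way.

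At 28 d after ligation control liver had lower levels of much of the list than sham. Of 33 members 15 fell and none rose, against 11.5% and 11.7% of all genes, and the median difference was −0.68 (−0.03 over all genes). By role, 1 of 3 sensors fell, 3 of 5 signalling genes (Usp18, Stat2 and Irf9), 7 of 18 effectors, 2 of 3 antigen processing genes (Tap1 and Psmb9) and 2 of 4 GTPases (Irgm1 and Iigp1). Groups did not overlap for 19 members, all lower, against 18% of all genes.

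Among the sensors, Dhx58, which encodes LGP2, a regulator of RNA sensing, read 7.32, 7.59 and 7.27 in sham and 5.57, 6.44 and 6.61 after ligation, and fell by 1.18 (SE 0.27, 2.27-fold, adjusted p = 0.00298). Of the regulators, Usp18, the protease that removes ISG15 and damps the type I receptor, went from 8.48, 8.70 and 8.11 to 6.80, 7.50 and 7.92, a fall of 1.03 (SE 0.28, adjusted p = 0.0121). All ligated arrays lay under all sham arrays for both genes.

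Effectors, the largest role in the list, also made up the largest group of calls. Isg15, the ubiquitin-like modifier, read 4.72, 4.80 and 4.58 in sham and 4.01, 3.94 and 3.77 after ligation. It fell by 0.80 (SE 0.14, 1.74-fold, adjusted p = 0.000465), and its probe set was dim, with the ligated arrays near the 25th percentile of the genes' mean levels (3.89). Rsad2, which encodes viperin, an enzyme that makes a chain-terminating nucleotide, fell from 7.44, 7.82 and 7.56 to 5.80, 6.32 and 6.45, by 1.41 (SE 0.26, 2.67-fold, adjusted p = 0.00054). Ifit1 read 7.04, 7.42 and 7.01 in sham and 3.94, 5.78 and 6.27 after ligation, and fell by 1.83 (SE 0.44, 3.55-fold, adjusted p = 0.00473), with replicate 1 far below the others. For Rtp4, an interferon-induced chaperone of membrane receptors, sham read 7.56, 8.00 and 7.56 and ligation 5.14, 7.13 and 7.03, a fall of 1.28 (SE 0.38, adjusted p = 0.0192). Ifit3 fell by 1.45 (SE 0.41, adjusted p = 0.014) and Bst2 by 0.98 (SE 0.22, adjusted p = 0.00326). The GTPase Iigp1, which attacks parasite vacuoles, read 10.73, 10.64 and 10.48 in sham and 8.54, 9.76 and 9.91 after ligation, and fell by 1.21 (SE 0.34, adjusted p = 0.0135).

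Without replicate 1 of the ligated controls 9 members were called, at a median of −0.34, with 21.3% of all genes called either way. Without any 1 of the other 5 arrays of the comparison 11 to 18 were called, with 17.8 to 23.1% of all genes. Cell markers were also called after ligation at 28 d, when 11.7% of all genes were called higher and 11.5% lower. Of these markers 6 of 6 for neutrophils, 6 of 8 for recruited macrophages and 6 of 9 for Kupffer cells rose. Those that fell were 2 of 13 for NK and T cells (Cd4 and Cd3d), 2 of 4 for B cells and 3 of 7 for endothelial cells. Of the other markers, 1 of 5 for cholangiocytes and 1 of 7 for stellate cells (Col1a1) rose. In turn 2 of 6 for hepatocytes (Ttr and Cyp2e1) and 1 of 6 for plasmacytoid dendritic cells (Siglech) fell. Limma called 0 of 7 for conventional dendritic cells (2 at an unadjusted p under 0.05). Beside the shares of all genes, a count of 1 marker, or of 2 of 13, is not read as a change of the cell type. The array means were 5.68 to 5.87 in sham and 7.09 to 7.86 after ligation for recruited macrophages, 4.59 to 4.71 and 4.07 to 4.34 for B cells. The B cell means after ligation were not far above the 25th percentile of the genes' mean levels (3.89). The part of these cells in the members' fall was not tested. The 2 times were not distinguished by the test of their difference in control liver: 0 of 33 members were called in limma's interaction of ligation and time, against 1.3% of all genes, with 12 at an unadjusted p under 0.05 and a median of −0.61. That count was 1 without replicate 1 and 2 without replicate 3 of the ligated controls at 28 d, and 1 without replicate 3 at 48 h. The shares of all genes called there were 0.919%, 3.25% and 1.11%. Between both sham groups 0 of 33 were called, against 0.133%, with 0 at an unadjusted p under 0.05.

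At 48 h after ligation the members stood lower in JNK1-/- liver than in control. Bst2, Oasl2, Oasl1 and Rsad2 fell in JNK1-/- liver against ligated control, the 4 members called of 33, against 1.11% of all genes called lower, and none was called higher (1.2%). All 33 differences were negative, from −1.80 to −0.03, with a median of −0.39 (0.00 over all genes). Groups did not overlap for 14 members, all lower, against 10.6% of all genes. All 4 called members were listed under antiviral effectors, the largest role in the list.

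Bst2, which encodes tetherin, a protein that holds budding virus particles on the cell surface, read 9.07, 8.69 and 8.87 in ligated control, 7.57, 7.71 and 8.12 in JNK1-/- and 8.83, 8.57 and 8.86 in JNK1Δhepa. The JNK1-/- arrays lay under both other groups. The difference from control was −1.08 (SE 0.22, 2.11-fold, adjusted p = 0.0147). Rsad2 read 7.87, 7.30 and 7.53 in control, 6.55, 6.34 and 6.57 in JNK1-/- and 7.36, 7.22 and 8.01 in JNK1Δhepa, again without overlap, and differed from control by −1.08 (SE 0.26, 2.11-fold, adjusted p = 0.0316).

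The 2 OAS-like genes, whose proteins carry ubiquitin-like tails, showed the same order. Oasl1 was at 8.89, 8.59 and 7.64 in control, 7.38, 6.18 and 6.16 in JNK1-/- and 7.73, 7.95 and 8.73 in JNK1Δhepa, and its fall of 1.80 against control was the largest of the list (SE 0.41, 3.48-fold, adjusted p = 0.0223). Oasl2 was at 7.30, 7.18 and 7.48, at 6.53, 6.17 and 6.34 and at 7.03, 6.87 and 7.39 in the same groups, a fall of 0.97 in JNK1-/- (SE 0.22, 1.96-fold, adjusted p = 0.0211). No array of JNK1-/- reached the lowest control array for either gene.

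Irf7, the transcription factor that amplifies type I interferon production, read 8.44, 8.01 and 8.14 in control, 7.44, 7.24 and 7.71 in JNK1-/- and 8.29, 8.15 and 8.57 in JNK1Δhepa. Its groups did not overlap, and the difference from control did not pass the test (−0.74, SE 0.30, adjusted p = 0.235). Ifit3 was at 6.03, 5.62 and 6.24 in JNK1-/-, under all 3 ligated controls, and differed by −1.17 (SE 0.41, adjusted p = 0.153). Dhx58 was at 7.56, 6.98 and 6.96 in control and 6.72, 5.97 and 6.58 in JNK1-/- (−0.74, SE 0.27, adjusted p = 0.165). The lower level was not limited to the effectors. The 3 sensors averaged 8.46 ± 0.22 in control and 7.74 ± 0.39 in JNK1-/-. The 5 signalling genes averaged 8.51 ± 0.14 and 8.07 ± 0.20, and the 18 effectors 6.72 ± 0.16 and 6.11 ± 0.13. The GTPases and antigen processing genes stood closer to control, at medians of −0.12 and −0.25.

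The contrast between both mutants at 48 h gave the same order. Bst2 (−0.95, SE 0.22, adjusted p = 0.0291), Rsad2 (−1.04, SE 0.26, adjusted p = 0.0375) and Oasl1 (−1.56, SE 0.41, adjusted p = 0.0451) were lower in JNK1-/- than in JNK1Δhepa, 3 of 33 against 1.24% of all genes called lower, and none was higher (1.2%). Of the 33 differences 29 were negative (median −0.29), and 13 members did not overlap, all lower, against 10.1%. These arrays of JNK1-/- are those of the comparison with control, so the comparisons are not independent. JNK1Δhepa against control gave 0 of 33 called and 0 of all 18820 genes (0%) by limma, 0 members at an unadjusted p under 0.05, a median of −0.12 and differences from −0.40 to 0.21. Without any 1 array that median ran from −0.19 (control replicate 2 left out) to −0.0021 (control replicate 1), and it was −0.04 without JNK1Δhepa replicate 2. For Bst2 that difference was −0.13 (95% interval −0.60 to 0.34) and for Rsad2 −0.04 (−0.58 to 0.51).

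The number of calls at 48 h moved with single arrays. Against control, 0, 1 and 2 members were called without control replicate 1, 2 or 3 and 2, 1 and 2 without JNK1-/- replicate 1, 2 or 3. In the same order 1%, 0.855%, 1.7%, 1.24%, 1.77% and 2.19% of all genes were called either way. Against JNK1Δhepa, 1, 0 and 1 members were called without JNK1-/- replicate 1, 2 or 3 and 0 without any JNK1Δhepa replicate. The shares of all genes there were 1.21%, 1.52% and 2.03%, and 1.3%, 1.11% and 0.77%. Neutrophil markers stood higher in JNK1-/- than in JNK1Δhepa at 48 h, with array means of 6.37 to 7.17 against 5.15 to 5.64 (5.34 to 7.62 in ligated control). Of 6 markers 1 was called (Retnlg), against 1.2% of all genes called higher, and the median difference was 1.26. Nkg7, a cytotoxic granule gene and 1 of 13 NK and T cell markers, was lower in JNK1-/- than in control (−1.21, SE 0.26, adjusted p = 0.0172), and the 13 markers averaged 3.82 to 3.85, against 4.03 to 4.09 in control and 3.93 to 4.05 in JNK1Δhepa. These means lay near the 25th percentile of the genes' mean levels (3.89), so the differences between them are of dim probe sets. Class II presentation genes averaged 6.71 to 6.96 in JNK1-/-, below control (7.12 to 7.43) and JNK1Δhepa (7.00 to 7.32), and B cell markers 4.04 to 4.28, below control (4.43 to 4.63) and JNK1Δhepa (4.30 to 4.47). Against control limma called 0 of 7 and 0 of 4 of these, with 2 and 2 at an unadjusted p under 0.05. The B cell means were also not far above 3.89. The part of these cells in the members' levels was not tested.

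**Figure D3:**
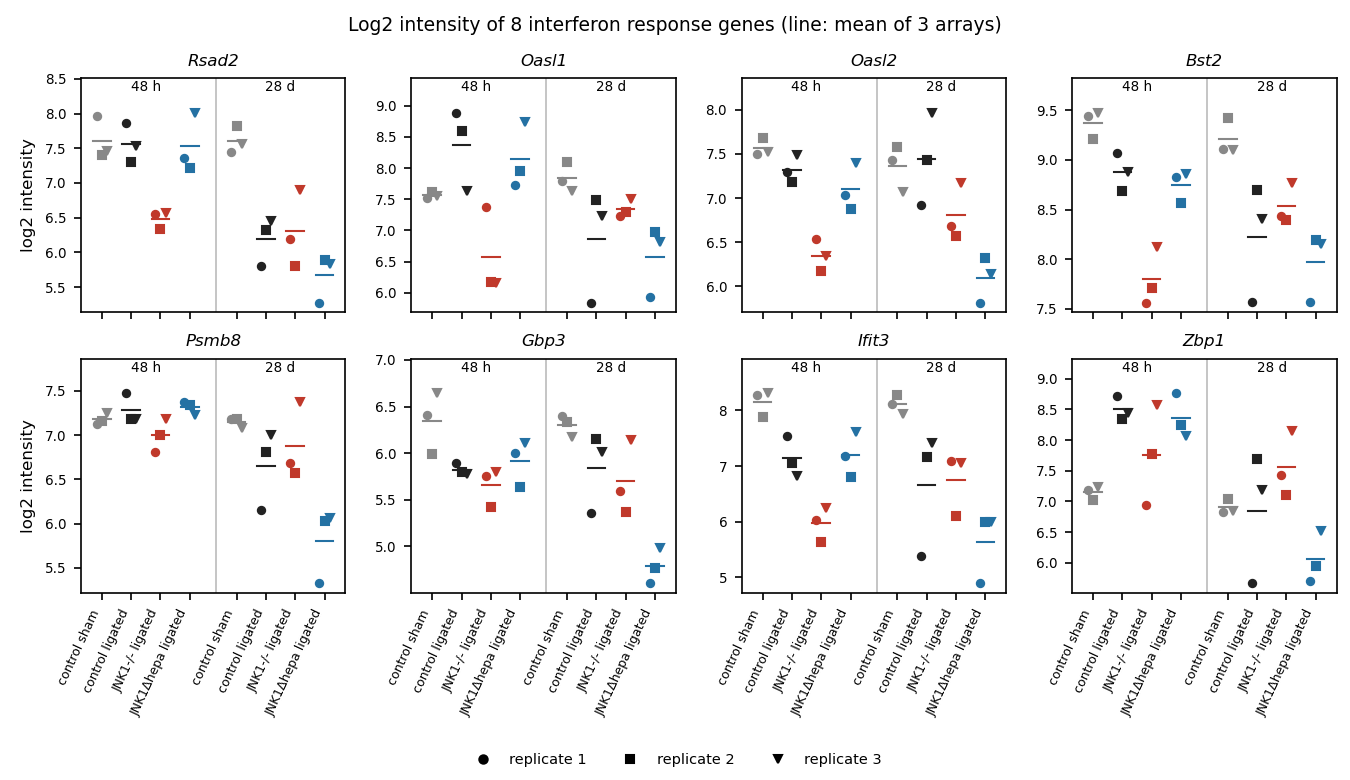
Log2 intensity (vertical axis) of Rsad2, Oasl1, Oasl2, Bst2, Psmb8, Gbp3, Ifit3 and Zbp1 on every array, by group and time, with a line at each mean of 3 arrays and a symbol for the replicate number. At 48 h the JNK1-/- points of Rsad2, Oasl2 and Bst2 lie under all other points, and at 28 d the JNK1Δhepa points of Gbp3 lie under all other points, at 4.60, 4.77 and 4.99.

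At 28 d the members stood lowest in JNK1Δhepa, and none was called between JNK1-/- and control. Oasl2 and Gbp3 fell in liver labelled JNK1Δhepa against ligated control, 2 of 33 against 0.106% of all genes called lower, and none was called higher (0.122%). The median difference was −0.50 (0.01 over all genes), 32 of 33 were negative, and groups did not overlap for 3 members, all lower, against 6.14% of all genes. JNK1-/- against the same controls gave 0 of 33 called by limma, against 0.627% of all genes called either way, with 5 members at an unadjusted p under 0.05. Of those 33 differences 26 were positive (median 0.31), and groups did not overlap for 3 members, all higher, against 7.25%. Without control replicate 1 that median was −0.02.

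Oasl2 was at 6.92, 7.43 and 7.97 in control, 6.68, 6.57 and 7.17 in JNK1-/- and 5.82, 6.32 and 6.14 in JNK1Δhepa at 28 d. The JNK1Δhepa arrays were the lowest 3, and the fall against control was 1.35 (SE 0.22, 2.54-fold, adjusted p = 0.0496). Gbp3, a guanylate-binding GTPase that helps break open microbial vacuoles, was at 5.36, 6.15 and 6.01 in control, 5.60, 5.37 and 6.14 in JNK1-/- and 4.60, 4.77 and 4.99 in JNK1Δhepa. It fell by 1.06 against control (SE 0.21, 2.08-fold, adjusted p = 0.0496). Same-numbered arrays of these 2 groups deviated together (correlations of 0.50, 0.24 and 0.16), and those of control and JNK1-/- gave 0.18, 0.08 and 0.50. With the replicate number as a block in limma Oasl2 kept its call (adjusted p = 0.0496) and Gbp3 lost it (adjusted p = 0.051). With the block in a fit to these 6 arrays alone neither was called (adjusted p = 0.31 and 0.351). Without control replicate 1 the count of members called was 19, at a median of −0.84, while calls over all genes rose to 10.5% either way, from 0.228%. Without control replicate 2 or 3 the count of members was 1 and 0, with 0.685% and 0% of all genes called. Without JNK1Δhepa replicate 1, 2 or 3 it was 0, with 0%, 0% and 0.0319% of all genes called. The median was −0.27 when the array labelled JNK1Δhepa replicate 1 was left out. With replicate 1 of both groups left out the count of members was 11, at a median of −0.59, with 3.61% of all genes called. Marker levels were also lower in JNK1Δhepa than in control without overlap for recruited macrophages (array means 6.81 to 6.97 against 7.09 to 7.86), Kupffer cells (8.80 to 9.16 against 9.23 to 9.41), conventional dendritic cells (4.40 to 4.49 against 4.54 to 4.78) and B cells (3.92 to 4.02 against 4.07 to 4.34). Limma called 0 of these 8, 9, 7 and 4 markers, with 4, 4, 1 and 1 at an unadjusted p under 0.05, and their part in the members' levels was not tested. The B cell means lay near the 25th percentile of the genes' mean levels (3.89).

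Set directly against JNK1Δhepa at 28 d, JNK1-/- liver had the higher level of every member. The 33 differences ran from 0.03 to 1.50 with a median of 0.75 (−0.01 over all genes), and in 25 of 33 the 3 JNK1-/- arrays lay above the 3 JNK1Δhepa arrays, against 13.2% of all genes. Psmb8, Parp14, Xaf1 and Gbp3 were called higher, 4 of 33 against 0.569% of all genes, and none lower (0.393%). They come from 3 roles: antigen processing, antiviral effectors and GTPases.

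Psmb8, the immunoproteasome subunit that shapes peptides for class I display, read 6.69, 6.57 and 7.38 in JNK1-/- and 5.33, 6.03 and 6.06 in JNK1Δhepa, and control arrays read 6.15, 6.81 and 7.00. The difference was 1.07 (SE 0.21, 2.10-fold, adjusted p = 0.0217). Parp14, a mono-ADP-ribosyltransferase, read 8.13, 7.84 and 8.46 in JNK1-/- and 6.98, 7.38 and 7.50 in JNK1Δhepa, a difference of 0.85 (SE 0.19, 1.81-fold, adjusted p = 0.0298). Control arrays of Parp14 read 7.36, 8.15 and 8.10, with replicate 1 at the JNK1Δhepa level. Xaf1, which promotes apoptosis, was 6.53 ± 0.23 in JNK1-/-, 5.34 ± 0.47 in JNK1Δhepa and 5.76 ± 0.63 in control, and the mutants differed by 1.19 (SE 0.27, adjusted p = 0.0379). Gbp3 differed by 0.92 (SE 0.21, adjusted p = 0.0392).

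Several members with a larger difference did not pass. Zbp1 was at 7.42, 7.10 and 8.14 in JNK1-/- and 5.71, 5.95 and 6.52 in JNK1Δhepa, without overlap (1.50, SE 0.41, adjusted p = 0.0779). Dhx58 was at 6.61, 6.37 and 7.06 against 5.24, 5.81 and 6.07 (0.97, SE 0.27, adjusted p = 0.0779). Ifit1 was at 6.30, 5.44 and 6.17 against 3.61, 4.79 and 5.07 (1.48, SE 0.44, adjusted p = 0.101). Each of these 3 genes was higher on every JNK1-/- array than on any JNK1Δhepa array. Usp18 was at 7.99, 7.34 and 7.94 against 6.44, 6.95 and 7.18 (0.90, SE 0.28, adjusted p = 0.113), and Rtp4 at 7.11, 6.73 and 7.24 against 5.02, 6.27 and 6.19 (1.20, SE 0.38, adjusted p = 0.119). Isg15, at 4.27, 4.09 and 4.40 against 3.98, 3.83 and 3.84, stood closer (0.37, SE 0.14, adjusted p = 0.192). Irf7, at 8.31, 8.15 and 8.29 against 7.15, 7.95 and 7.80, did not overlap either (0.62, SE 0.30, adjusted p = 0.305), and its control arrays read 6.69, 8.51 and 8.09. The arrays of Iigp1 overlapped, at 9.72, 9.43 and 10.30 against 8.03, 9.00 and 9.77 (0.89, SE 0.34, adjusted p = 0.185). Rsad2 overlapped too, at 6.20, 5.80 and 6.90 against 5.28, 5.89 and 5.84.

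Here 0 members were called without JNK1-/- replicate 3 and 0 without the array labelled JNK1Δhepa replicate 1, the latter at a median of 0.53, and 1 was called without JNK1-/- replicate 1 or JNK1Δhepa replicate 2. In the same order 0.271%, 0.223%, 0.436% and 0.436% of all genes were called either way. Class II presentation genes, which mark antigen-presenting cells, averaged 7.63 to 8.40 in JNK1-/-, 6.41 to 7.50 in JNK1Δhepa and 6.64 to 8.77 in control at 28 d, with 0 of 7 called by limma between the mutants (5 at an unadjusted p under 0.05) at a median difference of 1.21. Markers of recruited macrophages averaged 7.12 to 7.56 in JNK1-/- and 6.81 to 6.97 in JNK1Δhepa, and 0 of 8 were called by limma (3 at an unadjusted p under 0.05). The part of these cells in the members' levels was not tested.

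The change of the mutant contrast between both times was tested directly. The difference JNK1-/- minus JNK1Δhepa moved upward from 48 h to 28 d for all 33 members, by a median of 1.11 (−0.03 over all genes), and 9 passed the test, against 1.22% of all genes called upward, with none downward (1.21%). The 9 were Oasl2 (1.47, SE 0.31, adjusted p = 0.0191), Bst2 (1.51, adjusted p = 0.0194), Psmb8 (1.39, adjusted p = 0.0259), Rsad2 (1.68, adjusted p = 0.0259), Dhx58 (1.64, adjusted p = 0.0307), Parp14 (1.11, adjusted p = 0.0356), Oasl1 (2.33, adjusted p = 0.0392), Ifit3 (2.36, SE 0.58, adjusted p = 0.0398) and Gbp3 (1.17, adjusted p = 0.0429). By role, 6 of the 9 are effectors, 1 is a sensor, 1 an antigen processing gene and 1 a GTPase, and no signalling gene passed. In 29 of 33 members JNK1-/- was the lower mutant at 48 h and the higher at 28 d, and in the other 4 it was the higher at both times.

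**Figure D4:**
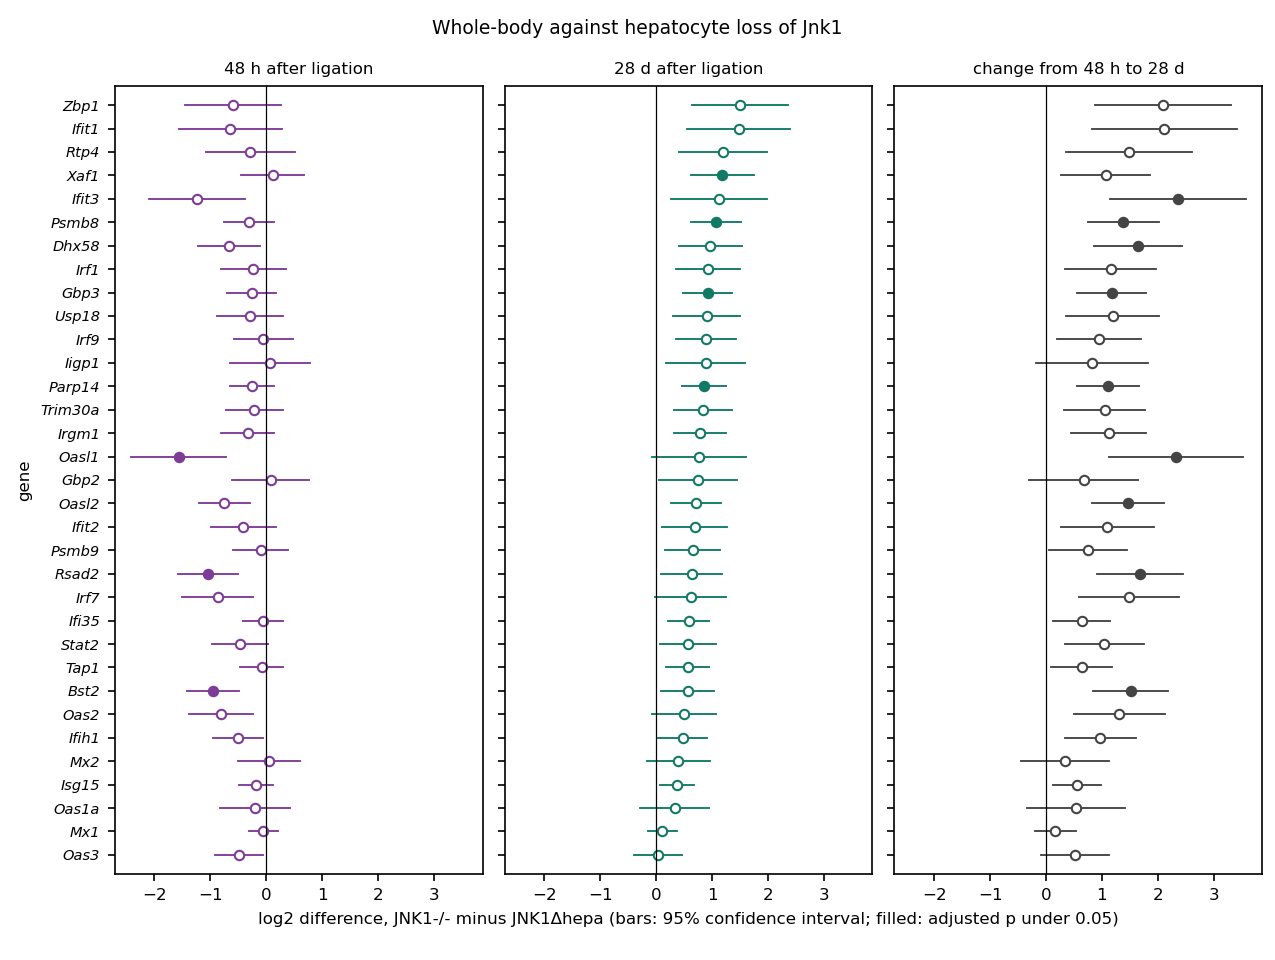
Log2 difference JNK1-/- minus JNK1Δhepa after ligation for each of the 33 members at 48 h, at 28 d, and its change from 48 h to 28 d (horizontal axes), with 95% confidence intervals and filled points where limma's adjusted p was under 0.05. Filled points are 3 at 48 h, all under 0, 4 at 28 d, all over 0, and 9 for the change.

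This count depended on few arrays. It was 0 without JNK1-/- replicate 3 at 28 d, without the array labelled JNK1Δhepa replicate 1 at 28 d (median 0.92) or without JNK1Δhepa replicate 3 at 48 h, 4 without JNK1-/- replicate 1 at 28 d or JNK1-/- replicate 2 at 48 h, 3 without JNK1Δhepa replicate 1 at 48 h, and 5 without JNK1-/- replicate 1 or JNK1Δhepa replicate 2 at 48 h. It was 17 in a model without replicate 1 of both ligated control and JNK1Δhepa at 28 d, in which 4.04% of all genes were called either way, against 2.43% with all arrays. In the refits just named that left out 1 array, 0.372 to 1.63% of all genes were called.

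The change between times was tested for each mutant against control as well. The difference JNK1-/- minus control moved upward for all 33 members (median 0.62), and Bst2 passed (1.39, SE 0.32, adjusted p = 0.0460), 1 of 33 against 0.414% of all genes, with none downward (0.329%). Its call was lost without control replicate 1 at 28 d, any JNK1-/- replicate at 28 d, control replicate 1 or 2 at 48 h or JNK1-/- replicate 2 at 48 h, and 3 members were called without control replicate 2 or 3 at 28 d and 2 without JNK1-/- replicate 3 at 48 h. The last 3 refits called 2.35%, 3.05% and 1.05% of all genes either way. For JNK1Δhepa minus control 0 of 33 and 0% of all genes passed in limma, 5 members had an unadjusted p under 0.05, and the median was −0.38. Without control replicate 1 at 28 d 3 members and 0.292% of all genes were called, and the median over the members was −0.74. That median was −0.12 without the array labelled JNK1Δhepa replicate 1 at 28 d. Both changes use the same control arrays, so they are set side by side and not counted together.

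Time was then compared within each genotype, 28 d against 48 h after ligation, a set of comparisons added after the data were seen and in which the older age at 28 d cannot be told apart from the time after surgery. In control liver 13 of 33 members were lower at 28 d and none higher, against 5.31% and 5.11% of all genes, with a median of −0.64. In JNK1Δhepa 26 of 33 were lower and none higher, against 8.67% and 9.3% of all genes, with a median of −1.03, and 31 of 33 did not overlap, all lower, against 19.3%. In JNK1-/- 0 of 33 were called by limma, against 2.84% of all genes called either way, with 5 at an unadjusted p under 0.05 and a median of 0.04. The largest falls in JNK1Δhepa were Zbp1, from 8.76, 8.25 and 8.06 to the 28 d values above (2.30, SE 0.41, adjusted p = 0.000902), and Rsad2 (1.86, SE 0.26, adjusted p = 0.000155). Psmb8 was at 7.37, 7.34 and 7.23 at 48 h and fell by 1.50 (SE 0.21, adjusted p = 0.000183). By role, all 3 sensors, 4 of 5 signalling genes, 13 of 18 effectors, all 3 antigen processing genes and 3 of 4 GTPases fell there. Without the array labelled JNK1Δhepa replicate 1 at 28 d the count was 14, at a median of −0.86, and without replicate 1 of both control and JNK1Δhepa at 28 d it was 26. In these 2 refits 10.2% and 14.9% of all genes were called either way. Several marker levels were lower at 28 d than at 48 h in JNK1Δhepa without overlap: endothelial cells (8.08 to 8.17 against 8.55 to 8.82, 3 of 7 called), B cells (3.92 to 4.02 against 4.30 to 4.47, 2 of 4), plasmacytoid dendritic cells (5.17 to 5.31 against 5.73 to 5.87, 2 of 6), conventional dendritic cells (4.40 to 4.49 against 4.72 to 4.76, 1 of 7) and stellate cells (6.55 to 7.25 against 7.54 to 7.70, 0 of 7 by limma, 2 at an unadjusted p under 0.05). The B cell means lay near the 25th percentile of the genes' mean levels (3.89). The part of these cells in the members' fall was not tested. In control liver the count of members was 4 without replicate 1 at 28 d (median −0.37), and 2, 8 and 7 without replicate 1, 2 or 3 at 48 h. In the same order 5.64%, 5.11%, 5.58% and 7.05% of all genes were called either way. In JNK1-/- liver Bst2 gave 0.73 (SE 0.22, adjusted p = 0.0846) and Irf7 0.79 (SE 0.30, adjusted p = 0.177).

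Leaving aside this last set, 11 of the 33 members were called in no comparison: Irf7, Oas2, Irf1, Ifih1, Ifit2, Trim30a, Gbp2, Mx2, Oas1a, Oas3 and Mx1. Their largest differences there ran from 0.35 (Mx1) to 1.49 (Irf7, the change of the mutant contrast between times, adjusted p = 0.0653).

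The rest of the pathway was followed in lists that hold no member, and their calls are given with all arrays only. Of 35 other interferon-induced genes, 1 fell in JNK1-/- against control at 48 h, against 1.11% of all genes called lower. This was Cmpk2, a mitochondrial nucleotide kinase gene that lies beside Rsad2. It read 6.52 ± 0.11 in control, 5.30 ± 0.26 in JNK1-/- and 6.20 ± 0.50 in JNK1Δhepa. Its difference from control was −1.22 (SE 0.22, limma adjusted p = 0.00485), and the list's median was −0.29. Between the mutants, Cmpk2 (−0.90, limma adjusted p = 0.0305) and Epsti1 (−0.65, adjusted p = 0.0412) were lower in JNK1-/- at 48 h, against 1.24% of all genes called lower. Trim12c (0.98, limma adjusted p = 0.0222) and Uba7, the enzyme that activates ISG15 (0.68, adjusted p = 0.0322), were higher in JNK1-/- at 28 d. Of all genes 0.569% were called higher there. At that time 34 of 35 differences were positive (median 0.60). The change of that contrast passed for Uba7, Cmpk2, Cxcl11 and Ifi203, 4 of 35, against 2.43% of all genes called either way. Without the array labelled JNK1Δhepa replicate 1 at 28 d, the share of all genes called for the change was 0.372%. In the mutant contrast at 28 d that share was 0.223%, against 0.962% with all arrays. Cxcl10, a chemokine induced by interferon gamma, rose by 3.09 after ligation in control liver at 48 h (SE 0.65, adjusted p = 0.00427), from 6.67 ± 0.51 to 9.77 ± 1.33, and was 7.60 ± 1.45 in JNK1-/- and 8.11 ± 0.20 in JNK1Δhepa, where it did not pass against control. At 28 d after ligation 9 of the 35 fell in control liver and 1 rose, against 11.5% and 11.7% of all genes.

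Of 11 interferons and receptors limma called 0 in every comparison of a mutant, with 0 to 3 at an unadjusted p under 0.05 in each, and Ifnb1 and Ifng, the interferon beta and gamma genes, named here for their role, differed by −0.17 and −0.15 between JNK1-/- and control at 48 h (adjusted p = 0.592 and 0.509). After ligation in control liver 4 of 11 rose at 48 h, against 5.61% of all genes. Among them were the interferon gamma receptor chains Ifngr1 (0.84, SE 0.13, limma adjusted p = 0.000432) and Ifngr2 (0.66, adjusted p = 0.00427). At 28 d 3 of 11 rose, against 11.7% of all genes, Ifngr1 by 0.89 and Ifngr2 by 0.74. Of 10 JAK-STAT and feedback genes 1 was called between the mutants at 48 h, against 1.2% of all genes called higher. This was Trim24, a transcriptional co-regulator known to restrain interferon signalling in liver (0.69 higher in JNK1-/-, limma adjusted p = 0.0369). It was also called for the change between times, in the direction opposite to the members (−1.14, adjusted p = 0.0218), against 1.21% of all genes called downward. Of 16 genes of sensing upstream of interferon, Irf3, the factor that switches on Ifnb1, fell in JNK1-/- at 48 h against control (−0.58, adjusted p = 0.0297) and was lower than in JNK1Δhepa (−0.53, adjusted p = 0.0437). Of 10 class I presentation genes H2-K1 passed for the change of the mutant contrast (0.64, adjusted p = 0.0362), and of 7 class II genes Ctss fell in JNK1-/- at 28 d against control (−0.55, adjusted p = 0.0148). Markers of plasmacytoid dendritic cells, which can make much type I interferon, averaged 5.48 to 5.79 in JNK1-/-, 5.62 to 5.83 in control and 5.73 to 5.87 in JNK1Δhepa after 48 h of ligation, and limma called 0 of 6 between genotypes at either time, with 0 or 1 at an unadjusted p under 0.05.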

How the data were processed

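Per the submitters' processing notes, the authors made the deposited log2 intensities with RMA (robust multi-array average: background correction, quantile normalisation and probe-set summary), while version, settings and genome build were not given in the sources used here. All 24 arrays were used as deposited. Of 35556 probe sets, 21218 carried 1 symbol, 1881 several and 12457 none in the platform annotation. Symbols were checked by gene number against the RefSeq gene table, which held 21185 of the 21218 probe sets' genes, and none was changed. For each of 18820 symbols the brightest probe set was kept. Irf1 had 2 probe sets and the other measured members 1.

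One limma model (version 3.58.1, R 4.3.3) of 8 group means was fitted to all 24 arrays (16 residual and 3.55 prior degrees of freedom), with Benjamini-Hochberg adjustment over all 18820 symbols, and calls were made at adjusted p under 0.05. The median SE was 0.129 for a difference of 2 groups and 0.183 for an interaction. With 3 arrays a group the number of arrays limits the precision. On simulated data this fit called, over the comparisons of 2 groups, 35.82 to 53.73% of genes changed by 0.5 on the log2 scale, 77.61 to 95.52% of those changed by 1 and 93.94 to 98.48% of those changed by 2, depending on the comparison. The simulated noise was normal, with 1 SD per gene for all groups, and the changed genes were drawn from all genes. The members varied more and unequally (median SD 0.58 in ligated control at 28 d, against 0.187 over all genes). These shares therefore do not hold for the members, and a member not called is not shown to be unchanged. Groups that do not overlap are those in which every array of one lies above or below every array of the other.

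The members and lists were chosen with earlier results of these data known. Values on every array were printed for at most 16 members, those called in the most comparisons (ties by the largest absolute difference), with Irf7, Isg15 and Psmb8 always added, for the genes of the other lists at most 4 a comparison by smallest p, and for Mapk8 as a check of the labels. Same-numbered arrays of ligated control and JNK1Δhepa at 28 d deviated together (correlations 0.50, 0.24 and 0.16). Those of ligated control and JNK1-/- at 28 d gave 0.18, 0.08 and 0.50. Those of both mutants at 28 d gave 0.02, −0.06 and 0.13, and those of ligated and sham control at 28 d 0.04, 0.04 and 0.14. Correlations of arrays with different numbers are not given here, so these values do not settle whether the numbers mark pairs. The labels do not say what a number marks. The model above therefore held no replicate block, and the block was run as an alternative. The alternatives were quantile normalisation again, centring on array medians, a filter on dim probe sets, the mean of a gene's probe sets, array weights, an intensity trend with a robust prior, a fit on the compared arrays alone, the sham arrays of 28 d in place of those of 48 h, the replicate number as a block and leaving out each array. Figures were drawn with matplotlib 3.10.9 in Python 3.11.15.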

Additional observations from a re-analysis of the deposited data

Results flagged for a closer look

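For 10 results the difference between both times was itself tested and passed (limma's interaction term, Benjamini-Hochberg adjusted over all genes). Of these, 9 concern the log2 difference JNK1-/- minus JNK1Δhepa after ligation, which was larger at 28 d than at 48 h by 2.3557 for Ifit3, 2.3298 for Oasl1, 1.677 for Rsad2, 1.6429 for Dhx58, 1.5122 for Bst2, 1.4669 for Oasl2, 1.3857 for Psmb8, 1.1748 for Gbp3 and 1.1055 for Parp14. The other concerns the difference JNK1-/- minus control, which was larger at 28 d by 1.3856 for Bst2. Each of these calls was lost without some single array, and age, 8 weeks at 48 h and 12 weeks at 28 d, cannot be told apart from the time after ligation.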

How the results depend on the processing

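No called result changed direction under the alternatives run. Counts of members called moved as follows. For ligation against sham at 48 h (1 as reported) the count was 2 with quantile normalization, with dim genes left out, with the replicate block and with the sham arrays of 28 d, 4 with each array centred on its median, 6 with array weights and 5 in a fit to the compared arrays alone; centring moved the median from −0.16 to −0.33. For ligation against sham at 28 d (15) it was 23 with centring and 4 in the fit to the compared arrays. For the interaction of ligation and time (0) it was 2 with quantile normalization, 1 with centring, 3 with array weights and 1 without both arrays numbered 1 of control and JNK1Δhepa at 28 d. For JNK1-/- against control it was 11 with array weights and 2 in the fit to the compared arrays at 48 h (4), and 1 with array weights at 28 d (0). For JNK1Δhepa against control at 28 d (2) it was 1 with quantile normalization, 0 with the mean of probe sets, 15 with array weights, 0 in the fit to the compared arrays, 11 without both arrays numbered 1, 1 with the replicate block, and 0 with the block in the fit to those arrays, where adjusted p was 0.31 for Oasl2 and 0.351 for Gbp3. For JNK1-/- against JNK1Δhepa it was 8 with array weights and 0 in the fit to the compared arrays at 48 h (3), and 13 and 0 in the same fits at 28 d (4). For the changes between times it was 4 and 0 in those fits for JNK1-/- against control (1), 5 with array weights for JNK1Δhepa against control (0), and 22, 14 and 17 for the mutant contrast (9) with array weights, in the fit to the compared arrays and without both arrays numbered 1. For 28 d against 48 h it was 20 with centring, 0 in the fit to the compared arrays and 6 without both arrays numbered 1 in control (13), and 6 with array weights in JNK1-/- (0). The cause of these moves was not tested. Apart from the fits without both arrays numbered 1, the share of all genes called is not given for these counts. A larger count is therefore not a result about the members alone. Without both arrays numbered 1 that share went from 0.228% to 3.61% for JNK1Δhepa against control at 28 d and from 2.43% to 4.04% for the changed mutant contrast. It went from 10.4% to 6.16% for control at 28 d against 48 h, and from 1.3% to 1.16% for ligation and time.

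Leaving out each array in turn gave counts of 0 to 0 and medians of −0.23 to −0.06 for ligation at 48 h, 9 to 18 and −0.75 to −0.34 at 28 d, and 0 to 2 and −0.76 to −0.35 for their difference. For JNK1-/- against control it gave 0 to 2 and −0.44 to −0.32 at 48 h, 0 to 0 and −0.02 to 0.43 at 28 d, and 0 to 3 and 0.42 to 0.82 for the change. For JNK1Δhepa against control it gave 0 to 0 and −0.19 to −0.0021 at 48 h, 0 to 19 and −0.84 to −0.27 at 28 d, and 0 to 3 and −0.74 to −0.12 for the change. For the mutant contrast it gave 0 to 1 and −0.39 to −0.24 at 48 h, 0 to 4 and 0.53 to 0.89 at 28 d, and 0 to 9 and 0.92 to 1.26 for the change. For 28 d against 48 h it gave 2 to 17 and −0.76 to −0.37 in control and 14 to 27 and −1.16 to −0.86 in JNK1Δhepa. Calls over all genes moved as well, for example from 0% to 10.5% for JNK1Δhepa against control at 28 d.

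Besides the values above, the replicate block moved 3 to 2, 9 to 10 and 13 to 12 calls for the mutant contrast at 48 h, its change and control at 28 d against 48 h. Centring moved the all-gene median to −0.20 and −0.23 for ligation at 48 h and 28 d, 0.15 for JNK1Δhepa against control at 28 d and −0.12 for the mutant contrast at 28 d, where 31 of 33 members stayed positive; at 48 h 2 of 33 became positive in JNK1-/- against control. The median for JNK1-/- against control at 28 d was −0.03 with array weights. The median for JNK1-/- at 28 d against 48 h was −0.08 with centring.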

Other observations

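Probe sets shared by several genes entered no test. The one shared by the GTPase genes Irgm2 and Igtp read 8.37 ± 0.23 in sham control, 8.25 ± 0.27 in ligated control, 7.84 ± 0.38 in JNK1-/- and 8.16 ± 0.08 in JNK1Δhepa at 48 h (mean ± SD, n = 3), and 8.43 ± 0.23, 7.57 ± 0.70, 8.09 ± 0.12 and 7.09 ± 0.71 in the same order at 28 d. The one shared by Oas1a and Oas1g, which encode synthetases that activate RNase L, read 6.58 ± 0.12, 6.13 ± 0.18, 5.75 ± 0.05 and 6.21 ± 0.17 at 48 h and 6.36 ± 0.04, 5.65 ± 0.59, 5.79 ± 0.44 and 5.05 ± 0.32 at 28 d. Both had their lowest group mean after ligation in JNK1-/- at 48 h and in JNK1Δhepa at 28 d.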
